A study of Homo sapiens with 12 samples.

Results

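LARP7, the other proteins of the 7SK complex and the La-related proteins are described here in RNA recovered with either of 2 microRNAs from HEK293T cells, an established line of human embryonic kidney origin that expresses SV40 large T antigen. The group was defined as every array probe annotated to LARP7, MEPCE, HEXIM1, CDK9, CCNT1, CCNT2, LARP1, LARP1B, LARP4 or SSB. Of these 10 genes, 8 had a probe in the deposited table, with 12 probes in all among 15025 probes and 9581 named genes. HEXIM1 and LARP1 had none and were not analysed here.

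The groups were miR-4307-3p pull-down, miR-4307-3p input, miR-3118-3p pull-down and miR-3118-3p input, with 3 Illumina bead arrays each and 12 in all. All cells, inputs included, had been transfected with 200 pmol of a synthetic biotin-labelled duplex of 1 of the 2 microRNAs and were collected 24 hours later. Streptavidin beads, which bind biotin, recovered the microRNA with its associated RNA. Untransfected cells and cells with an unrelated duplex were not analysed here, so within the enrichment of 1 microRNA, RNA that sticks to the beads by itself cannot be told apart from RNA held by the microRNA. Both microRNAs went over the same kind of beads, and the difference between them sets 1 pull-down against the other. Whether the 3 replicates of a group were separate cultures is not stated, and the p-values below therefore reflect the spread among these arrays alone, which may be technical.

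7SK is an abundant noncoding RNA made by RNA polymerase III. LARP7 binds its 3′ end and MEPCE caps its 5′ end, and with HEXIM proteins the particle holds the kinase P-TEFb (CDK9 with cyclin T1 or T2) in an inactive store. P-TEFb released from it phosphorylates paused RNA polymerase II and lets it move into elongation. LARP7 belongs to the family built on the La module, an RNA-binding fold named after the La protein (gene SSB), which protects the 3′ ends of new RNA polymerase III transcripts. Other members, such as LARP1 and LARP4, bind mRNAs in the cytoplasm. The arrays measured the mRNAs of these proteins, not the proteins or the complex.

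A microRNA pairs with mRNAs chiefly through its seed, bases 2 to 8. The mature sequences are shown because they are the baits of both pull-downs, with the seed in capitals, 5′ to 3′, as RefSeq gives them on GRCh38.p14.
miR-4307-3p: aAUGUUUUuuccuguuucc
miR-3118-3p: uGUGACUGcauuaugaaaauucu
RefSeq lists these molecules as miR-4307 and miR-3118, with no arm in the name. They lie on the 3′ side of their hairpins, at bases 56 to 74 of 84 for MIR4307 (chr14:26908697-26908715, plus strand) and at bases 44 to 66 of 75 for MIR3118-2 (chr15:20832838-20832860, plus strand). The labels give no sequence for the duplexes that were transfected. The seeds are identical at 3 of their 7 positions. A full seed match in an mRNA would read AAAACAU for miR-4307-3p and CAGUCAC for miR-3118-3p. Among 2370 mature names in the table, the miR-3118-3p seed is shared with miR-134-5p and the miR-4307-3p seed with 0 others. Transcript sequences were not used here, so seed sites in the mRNAs below were not searched.

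All levels below are deposited log2 values, and differences are on that scale, each ± its standard error (SE) from the fitted model. Array medians were nearly equal (7.53 to 7.59), so a higher or lower value is meant relative to the rest of the measured RNA. The arrays within a group correlated at 0.988 or more across all probes, except in the miR-3118-3p pull-down, where replicate 1 stood apart at 0.963 and 0.968 to the other two. The SD of a gene within this group had a median of 0.230, against 0.128 to 0.135 within the others. Of 8 genes listed as HEK293T markers 7 were measured, and in the inputs VIM, CDH2, LIN28B and NEFM lay between 8.13 and 12.42, while KRT8, KRT18 and NEFL lay between 6.34 and 6.93. ALB of hepatocytes (6.34 to 6.76) was in that lower range and COL1A1 of fibroblasts (5.78 to 6.13) below it, and none of 4 blood and 3 endothelial markers had a probe in the table used.

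The group was chosen by measured values, since LARP7 was picked for its miR-4307-3p enrichment, and the rule names the pull-down minus input of both microRNAs and their difference. The values of the 8 genes in these 3 comparisons are therefore descriptions, without a p-value. The comparison of the inputs with each other was not part of the rule and was tested, although the input arrays also enter the enrichments.

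LARP7 mRNA was the RNA with the highest difference of all 9581 genes in the miR-4307-3p pull-down, while it was near its input level with miR-3118-3p. Its level was 12.53, 12.95 and 12.89 in the miR-4307-3p pull-downs, against 9.26, 9.37 and 9.11 in the miR-4307-3p inputs. In the miR-3118-3p pull-downs it was 8.48, 9.01 and 8.99, against 9.12, 8.96 and 9.05 in the miR-3118-3p inputs. The 3 miR-4307-3p pull-down arrays thus stood above the other 9, and the 2 groups of miR-3118-3p arrays overlapped.

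The enrichment of LARP7 was 3.54 ± 0.16 with miR-4307-3p (95% interval 3.21 to 3.88) and -0.21 ± 0.16 with miR-3118-3p (-0.55 to 0.12; SE, n = 3 arrays per group). The difference between the microRNAs, miR-4307-3p minus miR-3118-3p, was 3.76 ± 0.22 (3.28 to 4.23), again the highest of all genes. The next genes in rank were ACACA (3.14), an acetyl-CoA carboxylase, in the miR-4307-3p comparison and BEX5 (3.46) in the difference. Unlike LARP7, ACACA was high with both microRNAs, and it was the highest gene of the miR-3118-3p comparison (3.31). In the miR-3118-3p comparison LARP7 ranked 7031 of 9581. By mean level the groups ran from the miR-4307-3p pull-down (12.79 ± 0.23, SD, n = 3) through the miR-4307-3p input (9.25 ± 0.13) and the miR-3118-3p input (9.04 ± 0.08) to the miR-3118-3p pull-down (8.83 ± 0.30). The values of the last 3 groups overlapped between neighbours. With replicate 1 of the miR-3118-3p pull-downs left out, the array that stood apart, the miR-3118-3p value of LARP7 was -0.04 and the difference was 3.58.

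The 2 probes of LARP7 gave the same picture. The values above are of ILMN_2392717, the probe with the higher mean. ILMN_1756104 read 12.22, 12.37 and 12.22 in the miR-4307-3p pull-downs, against 8.48, 8.53 and 8.34 in their inputs. It read 8.36, 8.39 and 8.57 in the miR-3118-3p pull-downs, against 8.85, 8.01 and 8.71 in their inputs. Its differences were 3.82 ± 0.17 with miR-4307-3p and -0.08 ± 0.17 with miR-3118-3p. Set against the input of the same replicate number, the miR-4307-3p pull-down was higher by 3.27, 3.57 and 3.78 on the first probe and by 3.75, 3.84 and 3.88 on the second.

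**Figure D1:**
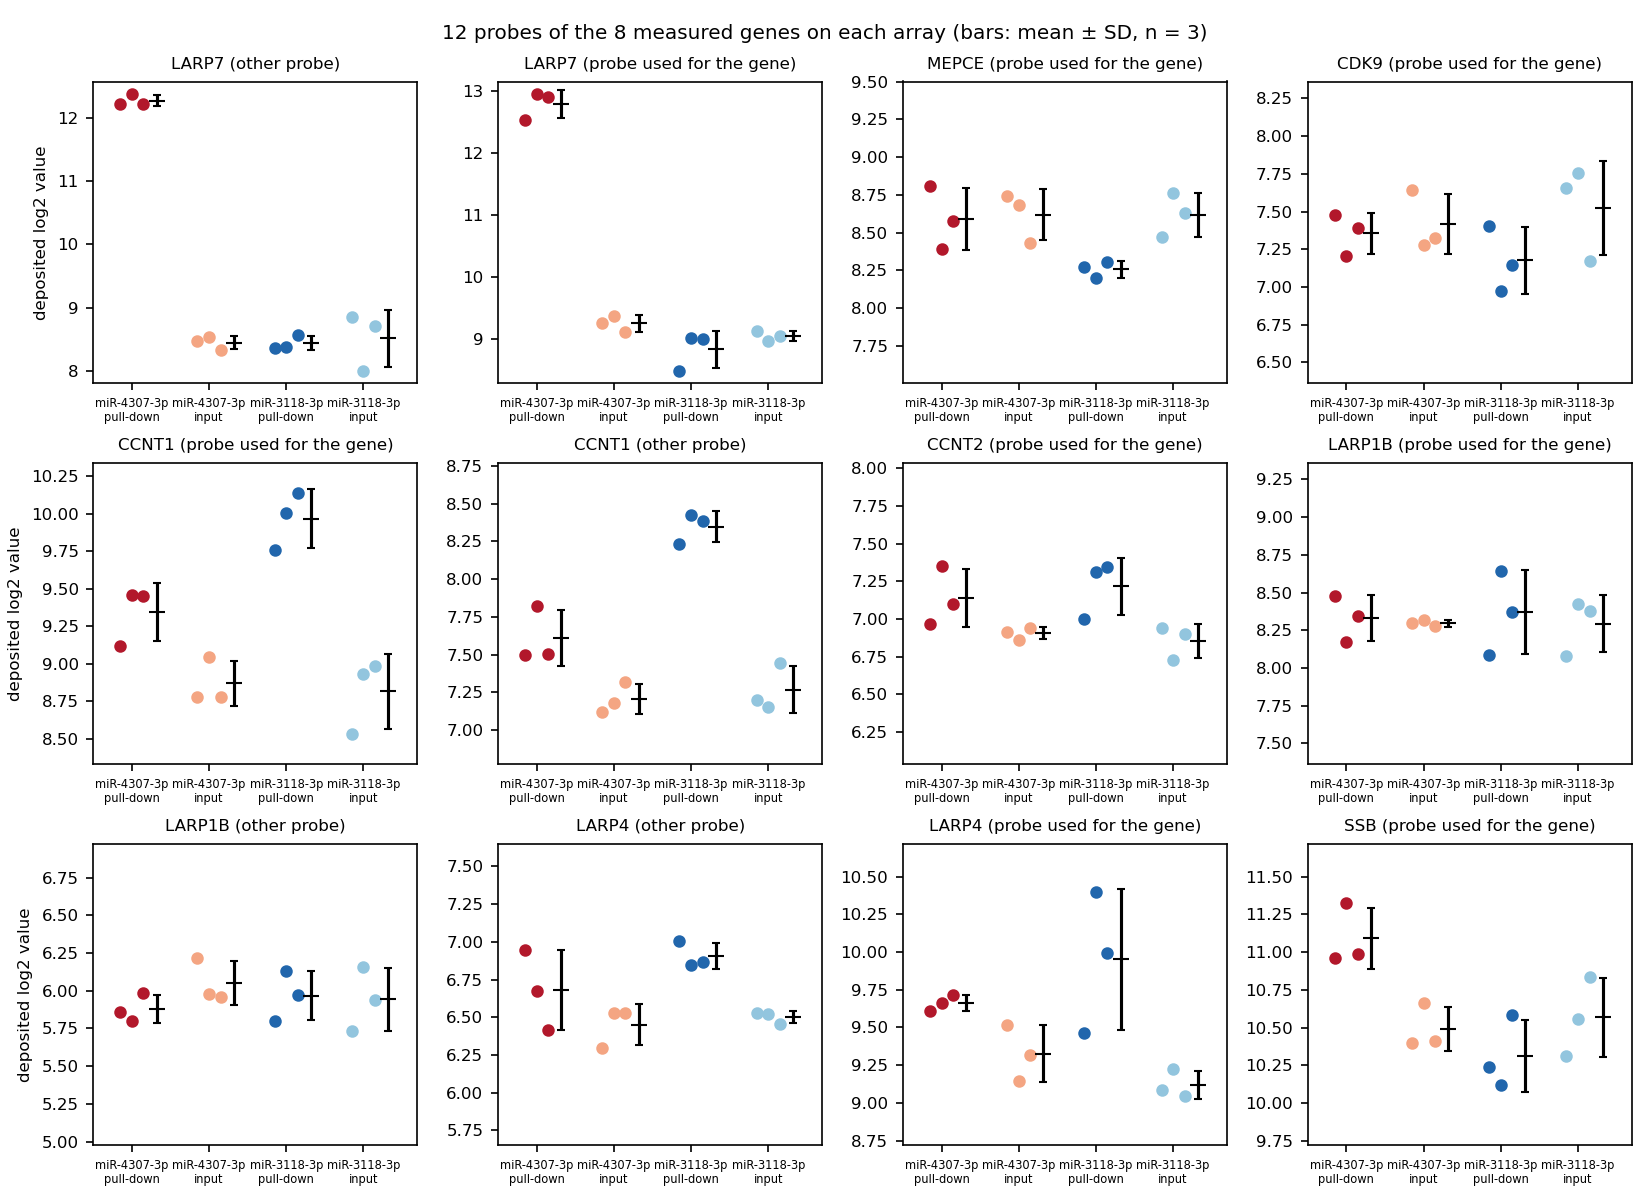
Deposited log2 value of each of the 12 probes on each of the 12 arrays (points), with the mean and SD of each group of 3 (bars). Vertical axes differ in range and span at least 2 log2 units. Both LARP7 probes lie above 12 in the miR-4307-3p pull-downs and below 10 in all other groups, and both CCNT1 probes are highest in the miR-3118-3p pull-downs.

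MEPCE, the enzyme that puts a methyl cap on 7SK, did not share the pattern of LARP7. Its level was 8.81, 8.39 and 8.57 in the miR-4307-3p pull-downs, against 8.75, 8.68 and 8.43 in the inputs. With miR-3118-3p it was 8.27, 8.20 and 8.31 in the pull-downs, against 8.47, 8.76 and 8.63 in the inputs, so that the 3 pull-down arrays lay below the 3 inputs. The differences were -0.03 ± 0.14 with miR-4307-3p (95% interval -0.32 to 0.26) and -0.36 ± 0.14 with miR-3118-3p (-0.65 to -0.07), and the difference between the microRNAs was 0.33 ± 0.19.

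Of P-TEFb, the mRNA of cyclin T1 was enriched more with miR-3118-3p than with miR-4307-3p, and that of the kinase CDK9 was not above its inputs. CCNT1, which encodes cyclin T1, the regulatory subunit that activates CDK9, read 9.12, 9.46 and 9.45 in the miR-4307-3p pull-downs, against 8.78, 9.05 and 8.78 in their inputs. In the miR-3118-3p pull-downs it read 9.76, 10.01 and 10.14, against 8.53, 8.94 and 8.99 in their inputs. Pull-downs lay above inputs with both microRNAs, with no overlap. The differences were 0.47 ± 0.16 with miR-4307-3p and 1.15 ± 0.16 with miR-3118-3p, where CCNT1 ranked 69 of 9581, and the difference between the microRNAs was -0.68 ± 0.22.

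The other CCNT1 probe gave 0.40 ± 0.13 with miR-4307-3p and 1.08 ± 0.13 with miR-3118-3p. With replicate 1 of the miR-3118-3p pull-downs left out the miR-3118-3p value of CCNT1 was 1.26. CCNT2, which encodes cyclin T2, the alternative partner of CDK9, read 6.97 to 7.35 in the miR-4307-3p pull-downs, against 6.86 to 6.94 in the inputs. It averaged 7.22 ± 0.19 in the miR-3118-3p pull-downs, against 6.85 ± 0.11 in the inputs (SD, n = 3). Its differences were 0.23 ± 0.13 and 0.36 ± 0.13 with miR-4307-3p and miR-3118-3p, with groups that did not overlap but nearly touched. CDK9, the kinase, read 7.47, 7.20 and 7.39 in the miR-4307-3p pull-downs, against 7.65, 7.28 and 7.33 in the inputs. It read 7.41, 6.97 and 7.15 in the miR-3118-3p pull-downs, against 7.66, 7.75 and 7.17 in the inputs. The groups overlapped with both microRNAs, at -0.06 ± 0.17 with miR-4307-3p (95% interval -0.42 to 0.29) and -0.35 ± 0.17 with miR-3118-3p (-0.71 to 0.01).

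Among the La-related genes, SSB was above its inputs with miR-4307-3p. LARP4 was above its inputs with miR-3118-3p, and with miR-4307-3p on only the probe with the higher mean. SSB, the gene of the La protein itself, read 10.96, 11.32 and 10.99 in the miR-4307-3p pull-downs, against 10.40, 10.66 and 10.41 in the inputs. With miR-3118-3p it read 10.24, 10.12 and 10.58 in the pull-downs, against 10.31, 10.56 and 10.83 in the inputs. The miR-4307-3p pull-downs lay above all other arrays, and the miR-3118-3p groups overlapped. The differences were 0.60 ± 0.16 with miR-4307-3p and -0.25 ± 0.16 with miR-3118-3p (95% interval -0.60 to 0.09), and the difference between the microRNAs was 0.85 ± 0.23, rank 352 of 9581.

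LARP4, which binds poly(A) tails and the poly(A)-binding protein, read 9.61, 9.66 and 9.72 in the miR-4307-3p pull-downs, against 9.52, 9.14 and 9.32 in the inputs. In the miR-3118-3p pull-downs it read 9.46, 10.40 and 9.99, against 9.08, 9.22 and 9.04 in the inputs. Pull-downs lay above inputs in both cases, and the first replicate was the lowest of the miR-3118-3p pull-downs. The differences were 0.34 ± 0.18 with miR-4307-3p, with a 95% interval (-0.05 to 0.72) that holds 0, and 0.83 ± 0.18 with miR-3118-3p (0.45 to 1.22). The difference between the microRNAs was -0.50 ± 0.26, with an interval (-1.05 to 0.05) that also holds 0. With miR-3118-3p the value was 1.08 without replicate 1 of that pull-down and 0.61 without replicate 2. The other LARP4 probe gave 0.23 ± 0.14 with miR-4307-3p and 0.40 ± 0.14 with miR-3118-3p, a difference of -0.18 between the microRNAs. On that probe the miR-4307-3p pull-downs (6.95, 6.67 and 6.42) overlapped their inputs (6.30, 6.53 and 6.53).

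LARP1B, a close relative of the TOP mRNA-binding protein LARP1, was near its inputs throughout. Its level ran from 8.17 to 8.48 in the miR-4307-3p pull-downs, against 8.28 to 8.32 in the inputs, and from 8.09 to 8.65 in the miR-3118-3p pull-downs, against 8.08 to 8.43 in the inputs. The differences were 0.03 ± 0.15 with miR-4307-3p (95% interval -0.28 to 0.35) and 0.07 ± 0.15 with miR-3118-3p (-0.24 to 0.39). Its other probe gave -0.17 ± 0.14 and 0.02 ± 0.14.

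**Figure D2:**
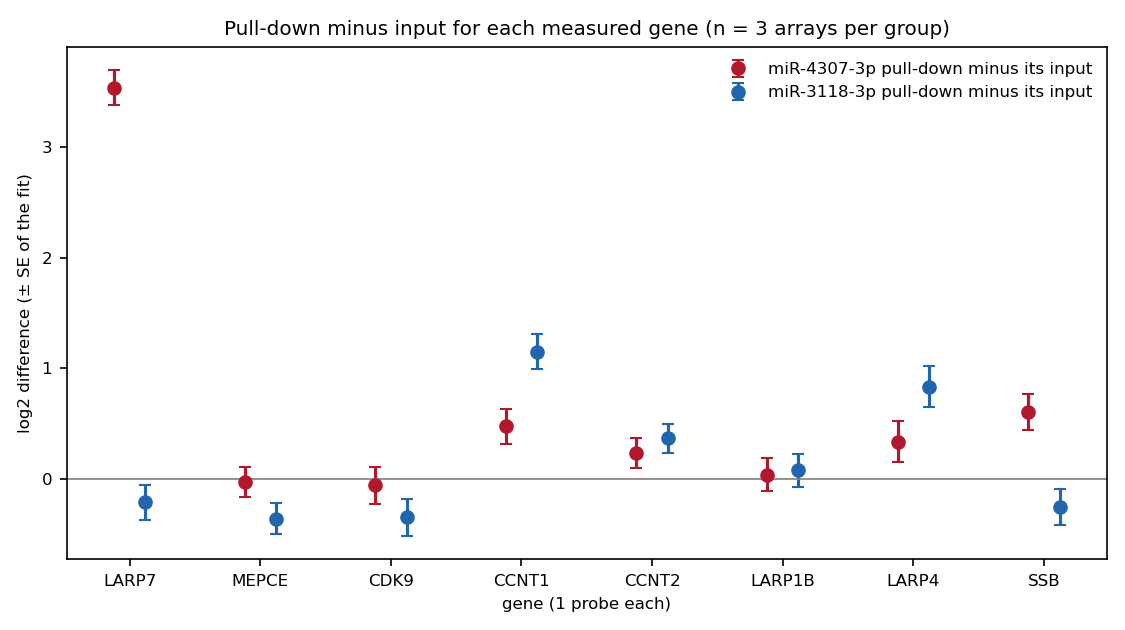
Pull-down minus input on the log2 scale for the 8 measured genes, 1 probe each, with the SE of the fit (n = 3 arrays per group). LARP7 stands at 3.54 with miR-4307-3p and -0.21 with miR-3118-3p, and all other values lie between -0.36 and 1.15.

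Read over the 8 genes, the miR-4307-3p differences had a median of 0.28, against -0.02 over all genes, and those of miR-3118-3p a median of -0.07, against -0.0021. With miR-4307-3p 2 of the 8, LARP7 and SSB, were past an adjusted p of 0.05 in limma, as were 14.1% of all genes, and with miR-3118-3p 2, CCNT1 and LARP4, as were 23.6%. For the difference between the microRNAs these were LARP7 and SSB again, 2 of 8, beside 7.59% of all genes. With 1 array left out at a time, SSB was past this threshold in 9 of 12 fits with miR-4307-3p and in 5 of 12 for the difference. LARP7 was past it in 12 of 12 for both, and CCNT1 and LARP4 in 12 of 12 with miR-3118-3p. CCNT1 was past it in 5 of 12 with miR-4307-3p and, like LARP4, in 1 of 12 for the difference. With miR-3118-3p CDK9 was past it in 2 of 12 and CCNT2 in 1 of 12. With the replicate number as a block within each microRNA, CCNT1 was past it as well with miR-4307-3p and in the difference, and MEPCE with miR-3118-3p. That block also called more of all genes than the main fit. The counts were 1987 against 1355 with miR-4307-3p, 3062 against 2258 with miR-3118-3p and 1163 against 727 for the difference. The values of pull-down and input did not overlap for 5 of the 8 genes with miR-4307-3p, as for 39.1% of all genes, and for 4 of the 8 with miR-3118-3p, as for 34.8%. Since the group was chosen with these comparisons known, nothing is read from the counts. The same holds for the fits in which a gene stayed past the threshold, which lend it no support.

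**Figure D3:**
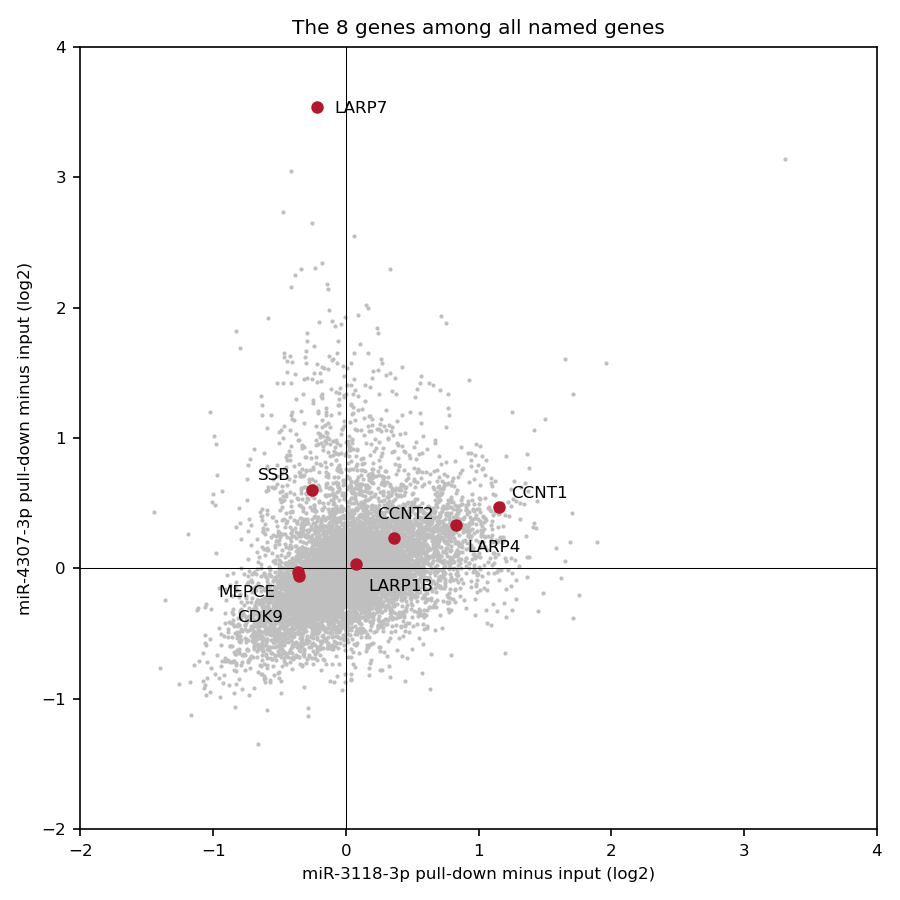
Pull-down minus input with miR-4307-3p (vertical) against the same with miR-3118-3p (horizontal), both on the log2 scale, for the 9581 named genes (grey) and the 8 described (red). LARP7 lies at the top of the plot, SSB lower on the same side of the vertical axis, and CCNT1 and LARP4 to the right.

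The inputs were compared with each other to see whether the transfected microRNA changed the cellular mRNA level of these genes. None of the 8 passed the test (limma, adjusted p = 1.00 for each), and 0% of all genes did. At an unadjusted p of 0.05 the count was 160 genes, with 0 of the 8 among them. The fit takes its spread from all 4 groups, and the miR-3118-3p pull-down was the widest. Its median SD was 0.230, against 0.128 and 0.135 in the inputs, which makes the test of the inputs less sensitive. With the 6 input arrays alone the count past the adjusted threshold was also 0. LARP7 differed by 0.21 ± 0.16 (miR-4307-3p input minus miR-3118-3p input, 95% interval -0.13 to 0.54), and its other probe by -0.07 ± 0.17. SSB differed by -0.08 ± 0.16 (-0.42 to 0.27), CCNT1 by 0.05 ± 0.16 (-0.28 to 0.38) and LARP4 by 0.21 ± 0.18 (-0.18 to 0.60). The inputs overlapped for 8 of the 8 genes, while they did not for 9.23% of all genes. The intervals of the 4 genes reach up to 0.60, each taken for its gene alone. This is not the smallest change that the test could find. The test was adjusted over all genes, so changes of these mRNAs above that size may also go undetected with 3 arrays per group. No cells without a duplex were compared.

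The RNAs whose values followed LARP7 most closely over the 12 arrays were CHMP4A (Pearson r = 0.995), IFT74 (0.994), NSRP1 (0.993), TCEAL4 (0.991) and STAMBP (0.990). These correlations rest on 3 arrays with high values, and the arrays share 1 normalization. Their miR-4307-3p differences were 2.15 for CHMP4A, a subunit of the ESCRT-III membrane remodelling complex, 2.25 for IFT74, a protein of intraflagellar transport, 2.30 for NSRP1, a splicing regulator, 1.57 for TCEAL4 and 1.62 for STAMBP, a deubiquitinase. Their miR-3118-3p differences lay between -0.39 and -0.13. By rank correlation the gene most like LARP7 was LEO1 (Spearman's rho = 0.965), while the 5 genes named by Pearson r had 0.748 (CHMP4A), 0.902 (IFT74), 0.916 (NSRP1), 0.818 (TCEAL4) and 0.797 (STAMBP). Of the genes described here SSB was the closest to LARP7 (r = 0.834, rho = 0.678), and the other 6 had r between -0.04 and 0.32.

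Genes around the 7SK complex that are no members were tested from 6 lists, against a background of 8.04% of all genes higher and 6.11% lower with miR-4307-3p, 12.7% and 10.9% with miR-3118-3p, and 4.73% and 2.86% for the difference between the microRNAs. In this and the next paragraphs, rose and fell refer to an adjusted p under 0.05 in limma. The lists were chosen with earlier results of these data known, so these p-values and counts are no independent test of them.

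LARP6, LARP4B, HEXIM2 and 7SK RNA itself made up the closest list, and 1 of these 4 changed. LARP6, a La-related protein that binds collagen mRNAs, fell by 0.98 in the miR-3118-3p pull-down (-0.98 ± 0.16, adjusted p = 0.000911) and stood at 0.12 ± 0.16 with miR-4307-3p. The difference between the microRNAs was 1.09 ± 0.23 (adjusted p = 0.00651). It read 9.52, 8.89 and 9.08 in the miR-4307-3p pull-downs, against 8.93, 8.94 and 9.27 in the inputs, and 8.16, 8.12 and 8.16 in the miR-3118-3p pull-downs, against 9.34, 9.08 and 8.95 in the inputs. The other LARP6 probe differed, at -0.35 with miR-3118-3p (adjusted p = 0.0939) and 0.10 for the difference (adjusted p = 0.867), so the result holds for 1 probe of 2.

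RN7SK, the 7SK RNA, gave -0.34 ± 0.18 with miR-4307-3p and -0.47 ± 0.18 with miR-3118-3p (adjusted p = 0.235 and 0.0720). It carries no poly(A) tail and has many near-identical copies in the genome, so what its probe reports is uncertain. HEXIM2, a relative of HEXIM1, gave -0.07 ± 0.15 and -0.09 ± 0.15, and LARP4B, a relative of LARP4, 0.27 ± 0.14 and 0.36 ± 0.14, with miR-4307-3p and miR-3118-3p (adjusted p between 0.0677 and 0.805). With a replicate block within each microRNA, RN7SK (adjusted p = 0.0139) and LARP4B (0.0426) passed with miR-3118-3p, and 3 of the 4 genes were called. With replicate 1 of the miR-3118-3p pull-downs left out, 2 of the 4 genes of this list fell with miR-3118-3p.

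Among 25 measured elongation factors of the super elongation complex, DSIF, NELF, the PAF1 complex and related kinases, 3 rose and 0 fell with miR-4307-3p. These were PAF1, LEO1 and CTR9, subunits of the PAF1 complex, which travels with RNA polymerase II, whereas SKIC8, a further subunit on the list, was at 0.01 ± 0.13 and did not pass. PAF1 rose by 0.97 ± 0.12 (adjusted p = 5.10e-05), LEO1 by 0.86 ± 0.15 (0.00109) and CTR9 by 0.71 ± 0.18 (0.0151). The list was not fixed to this complex, so no count is given for it. PAF1 read 10.44, 10.45 and 10.52 in the miR-4307-3p pull-downs, against 9.58, 9.59 and 9.31 in the inputs, with no overlap. With miR-3118-3p PAF1 read 9.37, 9.16 and 9.30 in the pull-downs, against 9.31, 9.49 and 9.49 in the inputs, with overlap.

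The difference between the microRNAs was 1.13 ± 0.17 for PAF1 (adjusted p = 0.000554) and 1.16 ± 0.21 for LEO1 (0.00226), and 2 of the 25 rose and 0 fell in it. A further LEO1 probe gave 0.57 with miR-4307-3p and a further CTR9 probe 0.78. That CTR9 probe, in a fit of all probes, was also lower with miR-3118-3p (-0.46, adjusted p = 0.0196) and higher in the difference (1.24, 0.000496), where the probe used for the counts gave -0.15 and 0.86 and did not pass. CTR9 was not called without replicate 2 of the miR-4307-3p pull-down or replicate 3 of its input (adjusted p up to 0.0797). With miR-3118-3p 0 of 25 rose and 1 fell, SUPT4H1 of DSIF at -0.44 ± 0.13 (adjusted p = 0.0273, past the threshold in 16 of 22 other settings). The SUPT4H1 call was lost with the 6 miR-3118-3p arrays alone, among other settings. Without replicate 1 of that pull-down the counts were 3 and 2, while over all genes 1696 rose and 1453 fell, more than in the main fit. The median of the list was 0.05 with miR-4307-3p and 0.01 with miR-3118-3p, close to those of all genes.

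RNA polymerase III, which makes 7SK and the other RNAs that La protects, had 26 measured genes among its subunits and initiation factors. With miR-4307-3p 4 rose and 0 fell. BRF1, a subunit of the initiation factor TFIIIB, rose by 1.18 ± 0.17 (adjusted p = 0.000199), the subunit POLR3G by 1.09 ± 0.17 (0.000453) and the subunit POLR3F by 0.76 ± 0.13 (0.000920). BRF1 read 7.28, 7.31 and 7.73 in the miR-4307-3p pull-downs, against 6.35, 6.18 and 6.24 in the inputs, so the groups were well apart. These inputs were as low as those of the hepatocyte marker ALB (6.34 to 6.76) or lower. How far they lay above background was not analysed. With miR-3118-3p 3 rose and 6 fell. MAF1, the repressor of RNA polymerase III, rose by 1.06 ± 0.25 (adjusted p = 0.00683), SNAPC1 by 0.89 ± 0.23 (0.0134) and GTF3C4 by 0.44 ± 0.13 (0.0266).

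POLR3K fell by 0.57 with miR-3118-3p (-0.57 ± 0.16, adjusted p = 0.0197), the subunit POLR1C, shared with RNA polymerase I, by 0.50 (-0.50 ± 0.14, 0.0166) and POLR3GL by 0.45 (-0.45 ± 0.16, 0.0470). The MAF1 value was 0.69 without replicate 1 of the pull-down, where it read 9.06, against 7.93 and 7.97 in replicates 2 and 3. The calls of POLR3GL and GTF3C4 were lost in 12 of 22 and 9 of 24 other settings, those of POLR3K, POLR1C and SNAPC1 in 3 to 4. Leaving out 1 array at a time gave 2 to 11 called genes of this list with miR-3118-3p, the lowest without replicate 2 of the pull-down. Over all genes these fits called 1480 to 3149. Across the 22 other settings the list had 1 to 11 called genes with miR-3118-3p. The difference between the microRNAs rose for 3 and fell for 0, with BRF1 at 1.14 ± 0.24 (adjusted p = 0.00706), POLR3GL at 0.88 ± 0.22 (0.0213) and POLR3F at 0.83 ± 0.18 (0.00965). POLR3GL was not called in 5 of 21 other settings, each of which left out 1 array. The lowest value of the list in the difference was -0.92 and did not pass. The median of the list was -0.02 with miR-4307-3p and -0.11 with miR-3118-3p.

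LARP7 also guides the modification of U6 snRNA, and 14 genes of U6 maturation and the U6 particle were measured. With miR-4307-3p 1 rose, PRPF3, a tri-snRNP protein, by 0.74 ± 0.17 (adjusted p = 0.00718), and 0 fell. Leaving out 1 array gave 1 to 3 called genes of this list with miR-4307-3p and 0 to 4 for the difference, the highest in both cases without the first miR-3118-3p pull-down. The counts over all genes were also highest in that fit (2015 and 1346). With miR-3118-3p 1 rose and 3 fell. METTL16, the methyltransferase of U6, rose by 0.92 ± 0.16 (0.00135), and of the U6 ring proteins LSM7 stood at -0.70 ± 0.14 (0.00256), LSM5 at -0.58 ± 0.16 (0.0171) and LSM3 at -0.51 ± 0.16 (0.0286). With replicate 1 of the miR-3118-3p pull-downs left out 2 rose and 5 fell, in a fit where 1696 of all genes rose and 1453 fell. LSM3, whose other probe gave -0.83, was past the threshold in 18 of 23 other settings with miR-3118-3p, and LSM5 was not called without replicate 2 of the input (adjusted p = 0.0629). The difference between the microRNAs rose for PRPF3, at 0.89 ± 0.24 (0.0281), and for LSM3, at 0.78 ± 0.22 (0.0443). These 2 calls were lost in 5 of 21 and 10 of 22 other settings, mainly fits with an array left out. The lowest value of the list in the difference was -1.07 and did not pass. The median of the list was -0.15 with miR-4307-3p and -0.12 with miR-3118-3p.

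Of 6 genes listed for hnRNPs, a helicase and a splicing factor that bind 7SK, 1 rose and 2 fell with miR-4307-3p, and 0 rose and 1 fell with miR-3118-3p. HNRNPR stood at 0.59 ± 0.17 with miR-4307-3p (adjusted p = 0.0281), and 2 further probes gave 0.33 and 0.45 and were not called. HNRNPA1 stood at -0.81 ± 0.25 with miR-4307-3p (adjusted p = 0.0435) and -0.98 ± 0.25 with miR-3118-3p (0.0117). The miR-3118-3p value ran from -1.31 to -0.65 with 1 array left out, and its call was lost without replicate 3 of the input, with array weights and with the 6 arrays of that comparison alone. The other probe gave -0.37 with miR-4307-3p and 0.0055 with miR-3118-3p, and near-identical pseudogene copies make the source of its probes uncertain. SRSF2 stood at -0.42 ± 0.12 with miR-4307-3p (adjusted p = 0.0332). These calls with miR-4307-3p were lost in 6 of 24, 10 of 23 and 7 of 22 other settings for HNRNPR, HNRNPA1 and SRSF2, mainly fits with an array left out. HNRNPA2B1 (-0.04 and 0.08), SYNCRIP (-0.08 and -0.29) and DHX9 (0.31 and 0.07) did not pass with miR-4307-3p or miR-3118-3p. No gene of this list passed for the difference between the microRNAs.

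Partners of LARP1 and LARP4 at the mRNA ends formed the last list. PABPC1, the main cytoplasmic poly(A)-binding protein, to which LARP4 binds, read 11.19, 10.93 and 10.83 in the miR-4307-3p pull-downs, against 11.48, 11.20 and 11.39 in the inputs. In the miR-3118-3p pull-downs it read 12.81, 12.77 and 12.78, against 11.46, 11.72 and 11.56 in the inputs. The pull-downs lay below the inputs with miR-4307-3p and above them with miR-3118-3p. PABPC1 rose by 1.21 ± 0.13 with miR-3118-3p (adjusted p = 7.81e-05) and stood at -0.38 ± 0.13 with miR-4307-3p (adjusted p = 0.0654, and 0.0399 with a replicate block within each microRNA), and the difference between the microRNAs was -1.58 ± 0.18 (adjusted p = 6.29e-05).

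The other PABPC1 probe gave 0.84 with miR-3118-3p and -1.23 for the difference, although copies of this gene elsewhere in the genome make the source of its probes uncertain. PABPC4, a related poly(A)-binding protein, rose by 0.58 ± 0.15 with miR-4307-3p (adjusted p = 0.0151), a call lost without replicate 2 of the input or replicate 3 of the pull-down, and stood at -0.01 with miR-3118-3p. Its difference between the microRNAs was 0.58 (adjusted p = 0.113, and 0.0407 with that block). RPTOR (-0.01 and 0.38), MTOR (0.08 and 0.31), EIF4E (-0.05 and -0.10) and EIF4G1 (0.29 and 0.14) did not pass with miR-4307-3p or miR-3118-3p. In all, 1 of the 6 measured genes rose with each microRNA and 0 fell, and 1 fell in the difference. In the comparison of the inputs 0 genes of any of the 6 lists passed the test.

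**Figure D4:**
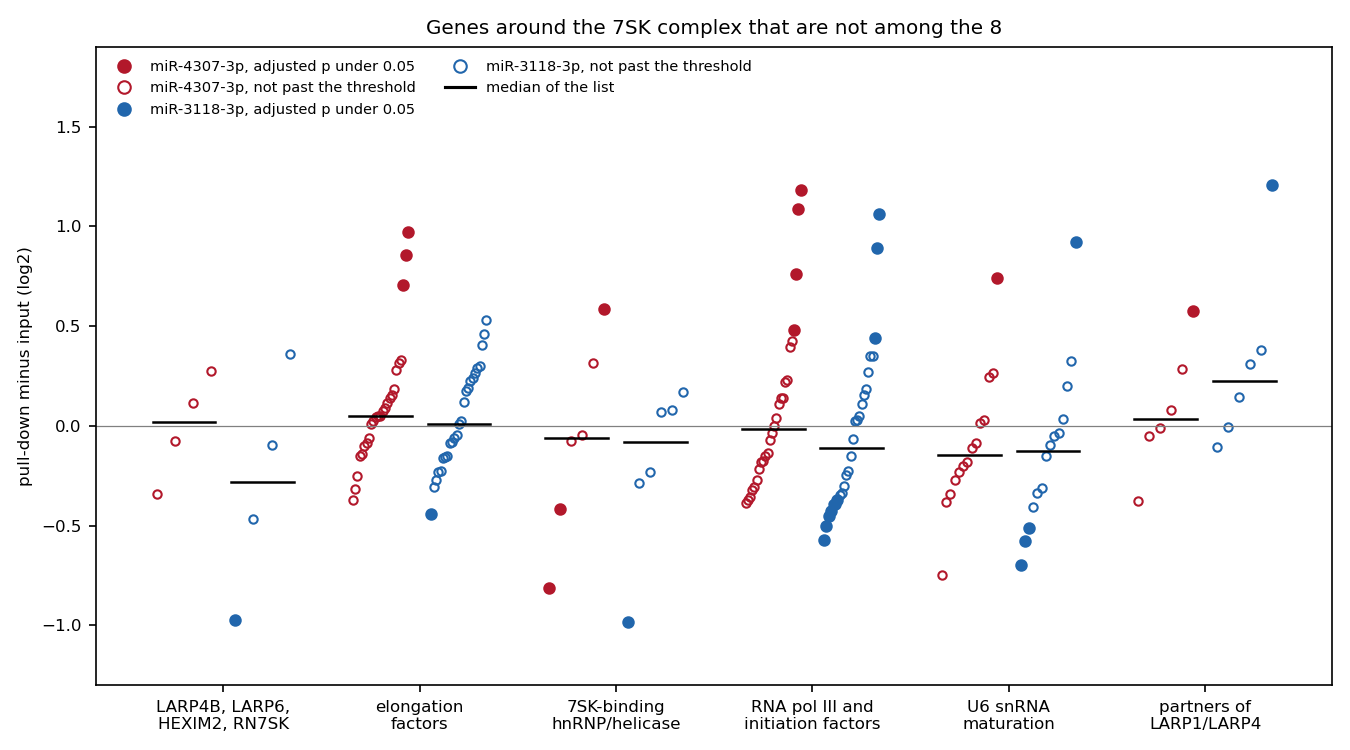
Pull-down minus input on the log2 scale for each measured gene of the 6 lists around the 7SK complex, with miR-4307-3p in red and miR-3118-3p in blue. Filled points passed an adjusted p of 0.05 in limma, open points did not, and black lines are medians of the lists. The medians lie between -0.28 and 0.23, and single genes such as PABPC1 (1.21 with miR-3118-3p) and BRF1 (1.18 with miR-4307-3p) stand above them.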

How the data were processed

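RNA was hybridized to Illumina bead arrays after amplification and biotin labelling, per the labels' protocols, for pull-downs and inputs alike. The log2 values used were deposited by the authors. lumi 2.2.1 is named in the submitters' processing notes. How the values were normalized and transformed, and why these probes were kept, are points not given in the sources used here. For dim probes a log2 unit may thus not equal a full doubling. The deposited table of unnormalized signals was left out, because none of its 12 value columns carries a name found in the labels. Background correction and a detection filter were therefore not run.

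Probes were named from the platform annotation (12354 with 1 gene, 12352 through the gene identifier). A gene with several probes was represented by its brightest probe, judged by the mean of the 12 arrays. limma 3.58.1 in R 4.3.3 was fitted to 4 group means over all 12 arrays (8 residual degrees of freedom) without a block, with two-sided p-values adjusted by Benjamini-Hochberg over 9581 genes. Simulated data served to test this fit.

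Same-numbered pull-down and input arrays deviated together for miR-4307-3p (r = 0.204, 0.342 and 0.286 across probes), so the numbers from the titles were taken to pair them. The fit behind the values and p-values does not use this pairing, and the block within each microRNA is an alternative whose result is given where it changes a call or moves a count by over 1.5 times. For miR-3118-3p the values were 0.344, 0.0736 and 0.476.

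The genes and lists were chosen with earlier results of these data known. Genes of the lists were named by a rule: up to 3 past the threshold per direction, comparison and list, and all genes of lists of at most 7. It adds the 5 genes with the highest r to LARP7.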

Additional observations from a re-analysis of the deposited data

Results flagged for a closer look

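Several genes differed between the microRNAs in their pull-down minus input (miR-4307-3p minus miR-3118-3p). By the test of that difference in limma these were LARP6 (1.09), LEO1 (1.16), PAF1 (1.13), BRF1 (1.14), POLR3GL (0.88), POLR3F (0.83), PRPF3 (0.89), LSM3 (0.78) and PABPC1 (-1.58), with the adjusted p-values given above. Of these, LARP6 was seen with 1 of its 2 probes. For LARP7 (3.76) every miR-4307-3p pull-down lay above the mean of its inputs and every miR-3118-3p pull-down below the mean of its own. This difference was not tested because LARP7 was chosen with it known. On the other LARP7 probe, replicate 3 of the miR-3118-3p pull-downs (8.57) lay just above the mean of its inputs (8.52). Groups of 3 arrays were too small to search for single outlying arrays.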

How the results depend on the processing

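LARP7 kept its rank at the top of the miR-4307-3p comparison and of the difference in each alternative run, at 3.46 to 3.82 and 3.58 to 3.90, where 3.82 is its other probe; leaving out single arrays gave 3.46 to 3.67 and 3.58 to 3.89, and -0.31 to -0.04 with miR-3118-3p and 0.14 to 0.27 between the inputs. Over all genes, the count past the threshold with miR-4307-3p (1355) was 2449 with the spread of those 6 arrays alone, 3212 with array weights and 753 to 2015 with single arrays left out. With miR-3118-3p (2258) it was 984 with its own 6 arrays and 1480 to 3149 with single arrays left out. For the difference (727) it was 1283 with array weights, 1163 with a replicate block within each microRNA, and 523 to 1346 with single arrays left out. It stayed at 0 between the inputs in each setting. Cyclic loess moved the split with miR-4307-3p to 898 higher and 378 lower, against 770 and 585. Among the named list genes, 34 calls were kept and 0 lost with either replicate block; the block joining both microRNAs added 1 (RN7SK with miR-3118-3p, adjusted p = 0.0378) and the block within each microRNA 4, given above. Over all genes these blocks called 1480 and 1987 with miR-4307-3p, 2492 and 3062 with miR-3118-3p, and 809 and 1163 for the difference. With miR-4307-3p the block within each microRNA called 7 RNA polymerase III genes, 5 higher and 2 lower. It also called 2 U6 genes and 2 LARP1 and LARP4 partners there, in each case 1 higher and 1 lower. Between the microRNAs it called 5 RNA polymerase III genes (4 higher, 1 lower) and 4 U6 genes (2 higher, 2 lower). Of the partners, 1 was higher and 1 lower between the microRNAs too. Either block called 3 elongation factors with miR-3118-3p, 2 higher and 1 lower. In each of these lists and comparisons the main fit had called genes in 1 direction only. Of 34 calls among the named list genes, 15 were kept in each alternative run, and HNRNPA1 with miR-3118-3p had the opposite sign with its other probe (0.0055, against -0.98). The difference uses all 4 groups, so the setting with the arrays of a comparison alone does not exist for it. A block within each microRNA for the inputs could not be had, and neqc was not run. How far signals lay above background was not analysed here.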
